A study of Mus musculus with 12 samples.

Results

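The genes described here are 9 effectors and targets of the integrated stress response, namely Atf4, Atf5, Ddit3, Ddit4, Trib3, Chac1, Asns, Sesn2 and Ppp1r15a. They were taken by gene name from GENCODE M1, and every exonic and intronic value of their transcripts was kept. This gave 46 of 213131 rows of the deposited table, for 23 transcripts of 9 genes, out of 34079 annotated genes with exonic values. The annotation lists 26 transcripts for these genes, and 3 of them were not in the table. Mouse embryonic stem cells (mESCs) of the XY line DTCM23/49, grown in serum and LIF on gelatin, were given 200 µM 4-thiouridine (4sU) for 15, 30 or 60 min, and labeled (newly transcribed) and total RNA were sequenced. Each of the 6 groups holds 2 libraries. Both replicates came from 1 culture that was divided and passaged 8 times, so the results speak for sister cultures of 1 line only. The tests treat the 12 libraries as independent, except where a block for paired libraries is named, although they come from 2 sister cultures. The p-values below therefore measure the spread between libraries, which also holds differences in RNA isolation and library preparation. Every library came from cells that had received 4sU, so levels in cells without it are not analysed here, and no condition was designed to induce stress.

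In the integrated stress response, kinases that sense amino acid shortage, unfolded protein in the endoplasmic reticulum, heme shortage or double-stranded RNA phosphorylate the translation factor eIF2α. Most translation then slows, while the messenger of the transcription factor ATF4 is translated better, and ATF4 switches on genes for amino acid supply, redox defence and, when stress lasts, cell death. Ppp1r15a (GADD34), itself a target, brings a phosphatase to eIF2α and closes the loop.

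The labels do not give the unit of the values, which are taken here as abundances per transcript length in arbitrary units. The exonic and intronic values of each library together add up to between 19988830 and 19992902, which hides the sequencing depth of each library and leaves no basis for an estimate of counting error. Entries at or below 1 are blank in the table and were taken as 0. Transcripts were summed per gene. Because isoforms that share exons have similar values, a sum may count the same exon more than once, which affects the level of a gene with several isoforms more than its difference between samples. Labeled and total RNA were compared with limma on log2(value + 1), a scale that understates the change of weakly expressed genes, over all features with a mean of at least 20 across the 12 libraries, with labeling time in the model and Benjamini-Hochberg adjusted p under 0.05 as the threshold. A difference is always labeled minus total on the log2 scale. Since every library has the same total, it is a difference in share of the library, and fewer cells making a transcript cannot be told apart from less of it per cell.

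The cells carried markers of mESCs, with all 8 listed markers above a mean of 20 and sums of 17903 to 30120 in labeled and 17531 to 25526 in total libraries. Of 5 fibroblast markers, 1 (Thy1) passed that mean, with Col3a1 and Postn at 0 in every library and list sums of 23.9 to 55.8. No endoderm (4), mesoderm (2) or trophectoderm (2) marker passed it, with Mesp1 and Cdx2 at 0, whereas the neural markers Nes and Pax6 did, with sums of 43.6 to 216. Labeled libraries differed in their intronic share. It was 14.8% and 13.9% in replicate 1 at 15 and 60 min, 7.24% and 6.99% in replicate 2 at the same times, and 9.35% and 10.8% at 30 min, against 6.53% to 7.41% in total RNA. Several results below are given with and without these libraries.

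To show the DNA next to which these genes start, the 250 bases before the RefSeq start are given for 5 genes in GRCm38.p6, each in the direction of transcription. Capitals mark matches to the C/EBP-ATF response element (TGATGNAAN), to which ATF4 dimers bind, or to the cAMP response element (TGACGTCA), a site of the ATF and CREB family that was added to the search after these sequences had been read. Both strands were searched in windows from 250 bases before to 50 after the start.
Atf4 (chr15:80254934-80255183, plus strand): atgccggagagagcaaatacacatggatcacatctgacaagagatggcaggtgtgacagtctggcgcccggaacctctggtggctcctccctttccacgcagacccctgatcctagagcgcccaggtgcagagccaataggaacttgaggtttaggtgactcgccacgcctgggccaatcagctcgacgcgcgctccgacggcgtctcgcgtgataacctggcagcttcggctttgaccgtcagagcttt
Ddit3 (chr10:127290543-127290792, plus strand): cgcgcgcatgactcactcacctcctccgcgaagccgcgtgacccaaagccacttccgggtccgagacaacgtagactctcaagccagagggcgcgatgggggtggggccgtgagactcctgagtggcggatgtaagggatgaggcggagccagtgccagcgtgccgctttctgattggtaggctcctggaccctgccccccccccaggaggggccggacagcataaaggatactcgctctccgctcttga
Ppp1r15a (chr7:45526269-45526518, minus strand): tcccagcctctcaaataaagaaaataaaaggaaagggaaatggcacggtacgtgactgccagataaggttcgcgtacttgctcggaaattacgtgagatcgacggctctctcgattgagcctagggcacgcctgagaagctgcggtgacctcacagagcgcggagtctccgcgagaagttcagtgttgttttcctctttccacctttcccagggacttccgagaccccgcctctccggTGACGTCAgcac
Chac1 (chr2:119350992-119351241, plus strand): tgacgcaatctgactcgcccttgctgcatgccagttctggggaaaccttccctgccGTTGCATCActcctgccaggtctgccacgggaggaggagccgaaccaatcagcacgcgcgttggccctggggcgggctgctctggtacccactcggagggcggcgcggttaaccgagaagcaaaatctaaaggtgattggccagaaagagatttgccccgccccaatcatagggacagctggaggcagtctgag
Asns (chr6:7693210-7693459, minus strand): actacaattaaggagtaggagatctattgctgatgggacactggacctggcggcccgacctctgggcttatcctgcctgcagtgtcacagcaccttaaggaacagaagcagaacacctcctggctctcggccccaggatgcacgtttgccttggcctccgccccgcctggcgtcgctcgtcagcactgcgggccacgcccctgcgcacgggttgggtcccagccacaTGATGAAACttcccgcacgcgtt

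The C/EBP-ATF letters occurred in 3 of the 10 windows of the 9 genes (Atf5 has 2), against 3.95% of all 32851 windows. In Asns the match TGATGAAAC lay 23 to 15 bases before the start, in Chac1 the match GTTGCATCA lay 194 to 186 bases before it and reads on the opposite strand, and in Trib3 the match TTTACATCA lay 14 to 22 bases into the transcript, also on the opposite strand. The cAMP response element occurred in 1.79% of all windows and, among these genes, in Ppp1r15a alone, 12 to 5 bases before the start, and it overlapped no other match. The longer ER stress response element (CCAAT and CCACG with 9 bases between them) occurred in 0.119% of windows and in none of the 10. These are descriptions of letters in these windows only. The genes whose exonic values were higher in labeled RNA (Atf4, Ddit3, Chac1 and Ppp1r15a, below) include windows with and without a match.

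Exonic abundance was higher in labeled than in total RNA for 4 of the 8 genes that could be tested, Ppp1r15a, Ddit3, Chac1 and Atf4, and lower for none. Over all 25318 features tested, 6.38% were higher and 9.49% lower in labeled RNA. The median difference of the 8 genes was 0.74, beside -0.01 for all features. Asns, Sesn2, Ddit4 and Trib3 did not pass the threshold, and Atf5 was below the mean of 20 and was not tested. When each library was centered on its own median, 2 of the 8 passed, Ppp1r15a and Ddit3. With all libraries of 1 replicate left out, which leaves 3 against 3, none of the 8 passed, and 0 or 5 of all features did, so the lost calls say nothing about the size of the differences. These were then 1.47 and 1.49 for Ppp1r15a, 0.80 and 1.42 for Ddit3, 1.04 and 0.48 for Atf4 and 0.97 and 0.81 for Chac1 without replicate 1 and without replicate 2.

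**Figure D1:**
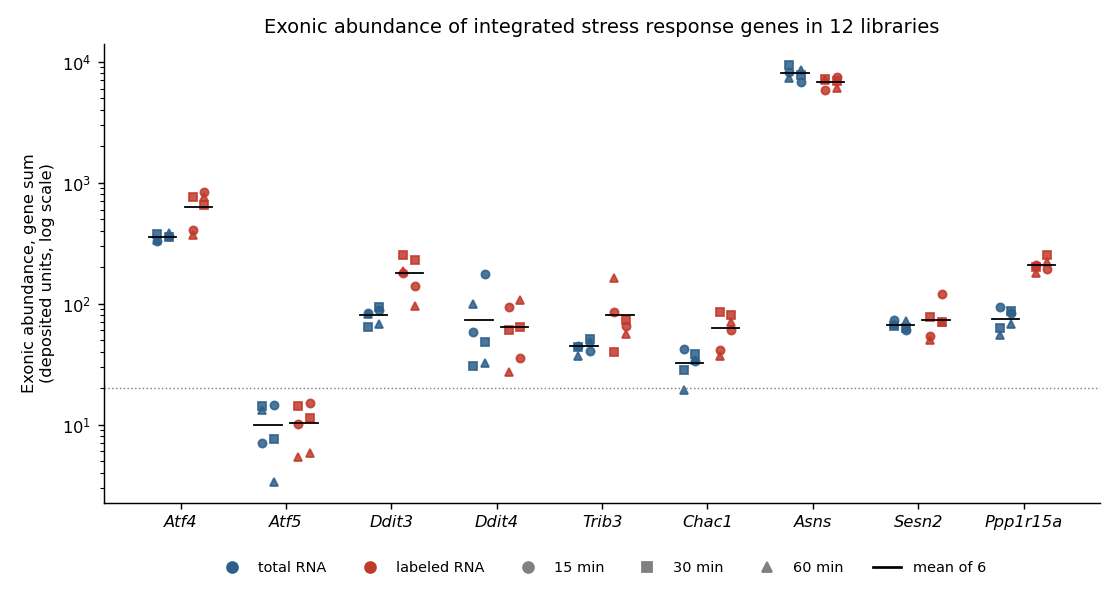
Exonic abundance of each gene (sum over its transcripts, deposited units, log axis) in the 6 total (blue) and 6 labeled (red) libraries, with labeling time by symbol, the mean of each 6 as a black line and the filter of 20 as a dotted line. Labeled and total libraries are separate for Ddit3 and Ppp1r15a and overlap for the other genes.

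Atf4, the transcription factor at the center of the response, lies at chr15:80085614-80087970 (mm9, plus strand). Its single measured transcript, Atf4-202, was at 405 and 845 at 15 min, 763 and 659 at 30 min and 366 and 758 at 60 min in labeled replicates 1 and 2. In total RNA it was at 331 to 382, with a median of 356. Of the 6 labeled libraries, 5 were above every total library, and the lower values were those of replicate 1 at 15 and 60 min, the libraries with the most intronic signal. The difference was 0.76 ± 0.21 (SE), or 1.69-fold, with adjusted p = 0.0305 (limma) and p = 0.00649 in an exact two-sided permutation test over the 924 divisions of the libraries. The adjusted p was not stable, since the call held when any of labeled 15 or 60 min or total 60 min replicate 2 was left out and was lost when any of the other libraries, in labeled 30 min, total 15 min and 30 min, or total 60 min replicate 1, was left out, with differences of 0.63 to 0.92 and adjusted p of 0.00776 to 0.0785. Without both labeled libraries of replicate 2 at 15 and 60 min, the difference was 0.49 with adjusted p = 0.0537. Without both of replicate 1 it was 1.09 (adjusted p = 0.00195, limma).

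Atf5, a related factor that also depends on translational control, was near the bottom of the measured range in these cells (chr7:52067627-52072028, mm9, minus strand). Its exonic sum ran from 5.38 to 15.1 with a median of 10.7 in labeled RNA and from 3.36 to 14.6 with a median of 10.4 in total RNA. The groups overlapped almost completely. The gene overlaps Nup62 and Il4i1 on the opposite strand, and whether the counting used strand is not given in the sources used here.

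Ddit3 encodes CHOP, the factor linked to cell death under lasting stress (chr10:126727830-126733344, mm9, plus strand). Its exonic abundance was 180 and 139 at 15 min, 252 and 229 at 30 min and 187 and 95.7 at 60 min in labeled replicates 1 and 2. Total libraries held 63.4 to 93.0, with a median of 82.3. No labeled library fell to the level of any total library, a separation seen in 3.33% of all features. The difference was 1.11 ± 0.21, or 2.16-fold, with adjusted p = 0.00587, and the call held with each of the 12 libraries left out. Without both labeled libraries of replicate 2 at 15 and 60 min it was 1.37 (adjusted p = 0.0011, limma). Without both of replicate 1 it was 0.995 (adjusted p = 0.0271).

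More than 1 isoform contributed to the Ddit3 signal. The largest share came from Ddit3-003, annotated as a retained intron isoform, which averaged 109 ± 54.7 (SD, n = 6) in labeled and 44.0 ± 12.9 in total RNA. It spanned 18.3 to 158 in labeled RNA, and its difference of 1.06 did not pass the threshold over transcripts (adjusted p = 0.106, limma). The coding isoform Ddit3-001 was at 34.4, 34.6, 55.2, 39.8, 27.1 and 40.3 in the labeled libraries and at 14.6 to 25.2 in total RNA. These groups did not overlap, and its difference was 0.86 ± 0.20 with adjusted p = 0.0146. The other coding isoform, Ddit3-002, differed by 1.09 ± 0.26 with adjusted p = 0.0159, where 5.28% of the 45537 transcripts tested were higher. Ddit3 overlaps Mars and a noncoding transcript on the opposite strand.

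Chac1 encodes an enzyme that breaks down glutathione (chr2:119176965-119180117, mm9, plus strand). It was at 41.3 and 60.0 at 15 min, 84.9 and 80.4 at 30 min and 36.8 and 71.0 at 60 min in labeled replicates 1 and 2, and at 19.3 to 41.9 with a median of 34.0 in total RNA. As for Atf4, the lower labeled values, which overlapped total RNA, were those of replicate 1 at 15 and 60 min. The difference was 0.89 ± 0.24, or 1.85-fold, with adjusted p = 0.0303. It stayed past the threshold with 6 of the 12 libraries left out singly. It was lost without either labeled 30 min library, total 15 min replicate 2, either total 30 min library or total 60 min replicate 1. Adjusted p then reached 0.0805. Without both labeled libraries of replicate 2 at 15 and 60 min the difference was 0.74 with adjusted p = 0.0593. Without both of replicate 1 it was 1.16 (adjusted p = 0.0137, limma).

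Trib3 encodes a pseudokinase that dampens ATF4 activity and AKT signaling (chr2:152163158-152169768, mm9, minus strand). Labeled values were 85.5 and 65.3 at 15 min, 40.1 and 73.6 at 30 min and 162 and 56.1 at 60 min, against 37.2 to 51.3 with a median of 44.2 in total RNA. Of the labeled libraries, 5 were above every total library and 1, replicate 1 at 30 min, was within their range. The difference of 0.71 ± 0.28 did not pass the threshold over all features (adjusted p = 0.101, limma), and it was 0.47 (adjusted p = 0.134) without the library at 162. Without both labeled libraries of replicate 2 at 15 and 60 min it was 0.91 (adjusted p = 0.0496), and without both of replicate 1 it was 0.37 (adjusted p = 0.240).

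The highest Trib3 value, 162, came mostly from noncoding isoforms. In that library the retained intron isoform Trib3-003 was at 95.2 and the processed transcript Trib3-002 at 39.6, while the coding Trib3-001 was at 27.5. Across libraries Trib3-001 overlapped between labeled (14.0 to 31.7) and total RNA (11.9 to 24.9). Its difference was 0.43 ± 0.26 with adjusted p = 0.271, beside 0.82 ± 0.41 and adjusted p = 0.188 for Trib3-003.

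Ppp1r15a, the phosphatase subunit of the feedback loop, showed the largest exonic difference among the 8 genes tested (chr7:52778286-52781638, mm9, minus strand). Labeled values were 209 and 195 at 15 min, 200 and 251 at 30 min and 180 and 222 at 60 min, and total values were 94.3 and 83.1, 62.8 and 87.3, and 55.4 and 68.2 at the same times. The highest total library was below the lowest labeled library by a wide margin. The difference was 1.48 ± 0.15, or 2.80-fold, with adjusted p = 0.00045, at percentile 97.6 of all features. It held with each library left out (1.41 to 1.54) and in all 4 of its transcripts, from 1.41 for the coding Ppp1r15a-001 to 1.55 for the retained intron isoform Ppp1r15a-002. These transcripts overlap one another and are no separate evidence. Ppp1r15a-002 has the same bounds, 2 exons and 2809 exonic bases as the coding Ppp1r15a-202. Tulp2 overlaps the gene on the opposite strand.

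Asns encodes asparagine synthetase and was the most abundant gene of the group (chr6:7625169-7643254, mm9, minus strand). Its sum over 7 isoforms was 5856 to 7517 with a median of 6994 in labeled RNA and 6852 to 9433 with a median of 7998 in total RNA. Labeled RNA was lower in 5 of 6 pairs of libraries of the same time and replicate number, but the difference of -0.24 ± 0.10 did not pass the threshold (adjusted p = 0.12, limma). Single isoforms gave the same direction except the retained intron isoform Asns-006 (0.09 ± 0.17), and Asns-002 (-0.36, adjusted p = 0.0468) and Asns-005 (-0.39, adjusted p = 0.0193) passed. Without labeled 15 min replicate 2 the whole gene passed as lower, at -0.30 with adjusted p = 0.0499.

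Sesn2, a leucine sensor that restrains mTORC1 (chr4:132047947-132066416, mm9, minus strand), was at 49.9 to 120 with a median of 70.9 in labeled and 60.9 to 72.5 with a median of 66.4 in total RNA. The difference was 0.09 ± 0.20 with adjusted p = 0.802. Ddit4, which encodes the mTORC1 inhibitor REDD1 (chr10:59412423-59414518, mm9, minus strand), was the most variable. Its labeled values were 27.3 to 106 and its total values 30.2 to 174, where total 15 min replicate 2 was at 174 and replicate 1 of the same time at 58.7. The spread within groups exceeded the difference of -0.06 ± 0.45 (adjusted p = 0.945), and with single libraries left out that difference ran from -0.30 to 0.23.

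If the values are per length, as assumed here, levels in total RNA can be set in order by the most abundant measured isoform of each gene. Asns (Asns-007, 2354 ± 239, SD, n = 6) was above Atf4 (Atf4-202, 356 ± 20.3), and Atf4 above all others, in every library. Ddit4 (73.8 ± 55.2) overlapped both Sesn2 (66.8 ± 4.67) and Ddit3 (Ddit3-003, 44.0 ± 12.9), while Sesn2 was above Ddit3 in every library. Chac1 (32.5 ± 7.96), Ppp1r15a (Ppp1r15a-003, 27.5 ± 8.36) and Trib3 (Trib3-003, 17.8 ± 3.11) came next, each overlapping its neighbor in this order. Atf5 (Atf5-002, 5.30 ± 2.67) was lowest and did not overlap Trib3.

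Intronic abundance was higher in labeled RNA for Ppp1r15a, Atf4, Chac1, Trib3 and Ddit3, 5 of the 6 genes whose introns could be tested. It is taken to report RNA not yet spliced, but may include retained introns and, if counting ignored strand, overlapping genes. Introns as a whole were higher in labeled RNA, with a median difference of 0.60 and 28.4% of 12621 features called higher, so the median of 1.72 for the 6 genes is read beside that shift. When each library was centered on its own median, 2 of the 6, Atf4 and Trib3, passed, and the calls over all introns divided into 1333 higher and 1421 lower, in place of 3585 and 40. Without labeled 15 and 60 min of replicate 2, 6 of the 6 genes passed, where 84.1% of all introns were called higher. Without those of replicate 1, 3 of the 6 passed, where 24.8% of all introns were. Of the other genes, Atf5, Sesn2 and Ddit4 had intronic means below 20.

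**Figure D2:**
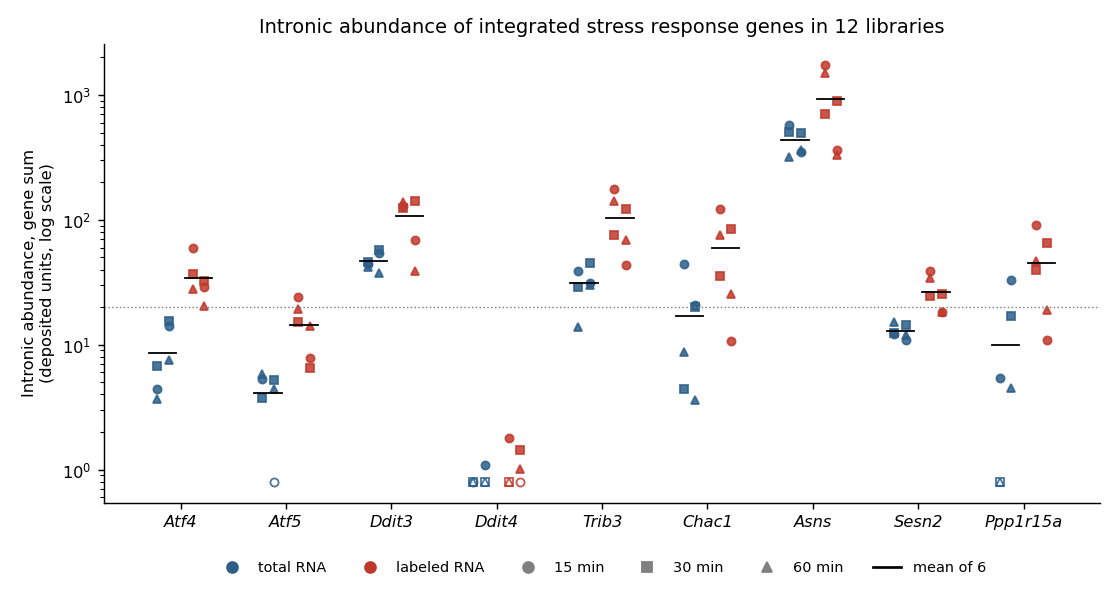
Intronic abundance of each gene (sum over its transcripts, deposited units, log axis) in total (blue) and labeled (red) libraries, with labeling time by symbol and the mean of each 6 as a black line where it exceeds 0.8. Open symbols at 0.8 stand for libraries with no value, which is most of those of Ddit4.

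Introns of Atf4 were at 59.5 and 28.8, 36.8 and 32.1, and 27.7 and 20.4 at 15, 30 and 60 min in labeled replicates 1 and 2. In total RNA they were at 3.69 to 15.5 with a median of 7.16, and no library of one kind overlapped the other, as in 15.7% of all intronic features. The difference was 1.95 ± 0.37 with adjusted p = 0.00237, and it held with each library left out. Trib3 introns, which at 43.1 to 175 exceeded its exonic sum in 4 of the 6 labeled libraries, were at 13.9 to 45.1 in total RNA, and differed by 1.63 ± 0.37 (adjusted p = 0.00589).

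Ddit3 introns spanned 38.9 to 141 in labeled and 37.4 to 57.3 in total RNA, where labeled 60 min replicate 2 fell into the range of total RNA. The difference was 1.05 ± 0.30 with adjusted p = 0.0204, and it was lost without labeled 30 min replicate 2 or total 30 min replicate 1 (adjusted p up to 0.0601). Ppp1r15a introns were at 10.9 to 90.7 in labeled RNA and between no value in 2 libraries and 33.2 in total RNA, so that its difference of 2.83 ± 0.81 (adjusted p = 0.0186) depends on values at 0. It was lost without labeled 30 min replicate 2, with adjusted p = 0.0518.

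Chac1 introns ranged from 10.6 to 122 in labeled and 3.62 to 44.4 in total RNA, and the groups overlapped. Their difference of 1.80 ± 0.62 (adjusted p = 0.0426) held with 3 of the 12 libraries left out singly, labeled 15 and 60 min replicate 2 and total 15 min replicate 1, and reached adjusted p = 0.116 without others. Asns introns spanned 331 to 1742 in labeled and 317 to 570 in total RNA. Their difference of 0.85 ± 0.39 did not pass (adjusted p = 0.111), but did in the fit with a block for each pair of labeled and total libraries of the same time and replicate number (adjusted p = 0.0431), and it moved with the labeled libraries used. It was 1.13 and 1.10 without labeled 15 or 60 min replicate 2, which passed, and 0.57 and 0.55 without replicate 1 of those times, which did not (adjusted p = 0.294 and 0.249). Without both of replicate 2 it was 1.45, and without both of replicate 1 it was 0.19 (adjusted p = 0.509). With each library centered on its median it was 0.20 (adjusted p = 0.48).

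Sesn2 and Atf5 introns, too low for the fit, were separate between groups, as were 15.7% of introns with a mean of at least 20. The share among lower introns was not computed, and Atf5 overlaps genes on the opposite strand. Sesn2 introns were at 18.2 to 38.7 in labeled and 11.0 to 15.3 in total RNA, and Atf5 introns at 6.50 to 24.2 and 0 to 5.83. In an exact two-sided permutation test over libraries both gave p = 0.00216, the smallest value that 924 divisions allow, without adjustment and without the shift of introns as a whole taken into account. Fitted with no filter on low values, Sesn2 introns differed by 0.95 ± 0.27 (adjusted p = 0.0261) and Atf5 introns by 1.70 ± 0.46 (adjusted p = 0.0225), where 17.9% of all introns were called higher. In the same fit the exons of neither gene passed (adjusted p = 0.826 and 0.905). Ddit4 introns had a value in 4 of 12 libraries, the highest at 1.78.

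**Figure D3:**
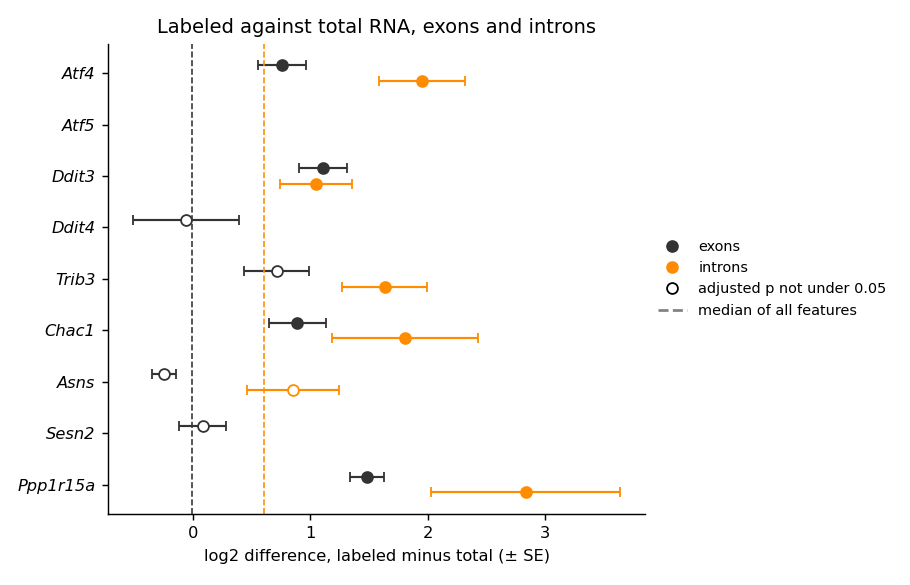
Difference between labeled and total RNA (log2, ± SE of the limma fit) of exons (dark) and introns (orange) for each gene, with open circles where adjusted p was not under 0.05 and dashed lines at the medians of all exonic (-0.01) and all intronic (0.60) features. Ppp1r15a has the largest difference of both kinds, and no point is drawn where a mean was below 20.

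The abundance of introns relative to exons differed between the genes. The exonic sums include retained intron isoforms, whose exons hold sequence that is intronic in other isoforms. In total RNA Ddit3-003 averaged 44.0 of a Ddit3 sum of 79.8, and Trib3-003 averaged 17.8 of a Trib3 sum of 44.4. For these genes unspliced RNA can therefore lie on both sides of the ratio, here and in its test below. In total RNA it had medians of 1.89% for Atf4, 5.22% for Asns, 6.13% for Ppp1r15a, 18.5% for Sesn2, 49.0% for Chac1, 57.8% for Ddit3 and 71.5% for Trib3. Over the total libraries Atf4 ranged from 1.10% to 4.40%, Asns from 4.19% to 6.93% and Ppp1r15a from 0 to 40.0%, with 2 libraries at 0, so the place of Ppp1r15a beside the other two is not set. In labeled RNA the medians were 4.84%, 11.3%, 22.9%, 34.1%, 73.8%, 55.5% and 143% in the same order.

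The ratio itself was tested as the difference between the intronic and exonic log2 values. Trib3 was higher in labeled RNA (0.92 ± 0.29, adjusted p = 0.0378), 1 of 6 genes tested beside 21.6% of 10486 features, and the call held with 2 of the 12 libraries left out singly. Atf4 (1.19, adjusted p = 0.0618), Asns (1.09, 0.0782), Ppp1r15a (1.35, 0.163) and Chac1 (0.91, 0.277) had differences of the same or larger size that did not pass. The Ddit3 ratio had a difference of -0.06 ± 0.25 (adjusted p = 0.852), where the median of all features was 0.64. All of these moved with the labeled libraries used. Without both libraries of replicate 2 at 15 and 60 min, which have an intronic share close to that of total RNA, 5 of the 6 genes passed, all but Ddit3, where 78.8% of all features were called higher. Without those of replicate 1 none did, where 14.9% of all features were.

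**Figure D4:**
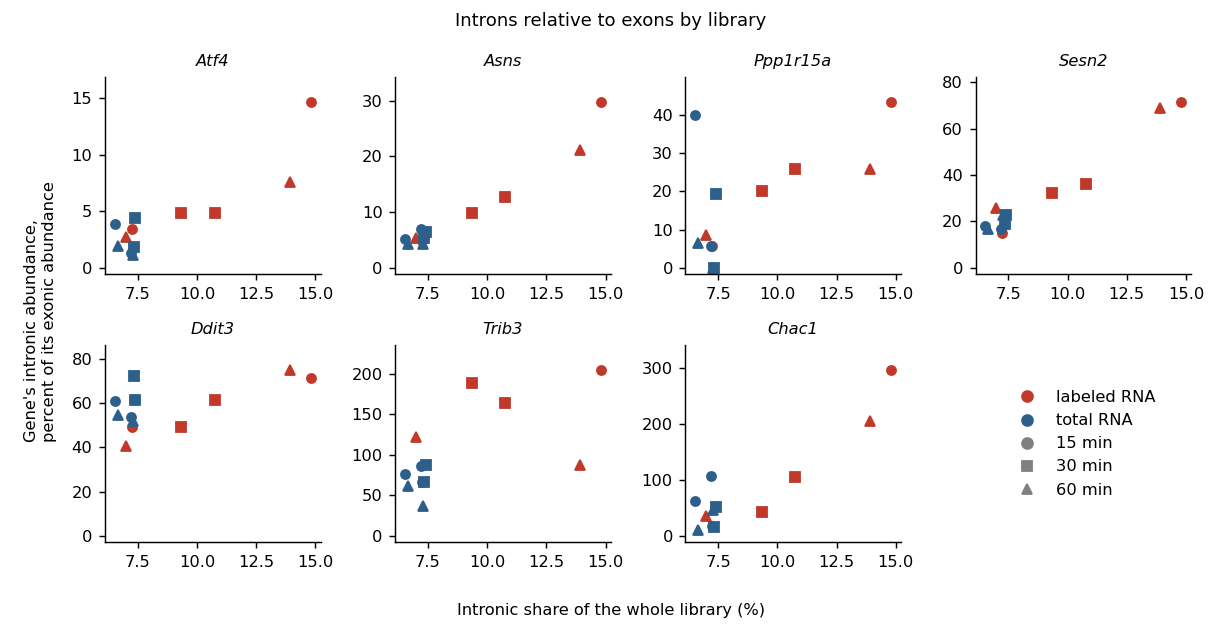
Intronic abundance as a percent of exonic abundance of each gene (y axis) against the intronic share of the whole library in percent (x axis), 1 point per library. The 2 labeled libraries with the highest intronic share also have the highest labeled values for every gene shown except Trib3. These are 29.7% and 21.2% for Asns, 71.6% and 69.1% for Sesn2, 71.4% and 75.0% for Ddit3 and 14.7% and 7.58% for Atf4. They are 296% and 205% for Chac1 and 43.4% and 25.92% for Ppp1r15a, where labeled 30 min replicate 2 is close at 25.85%. Labeled and total values overlap for each gene shown.

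No difference with labeling time was detected for these genes, in a comparison that could miss even large changes. Between 15 and 60 min, 0 of 8 genes differed in labeled RNA, in total RNA or in the difference between labeled and total RNA (limma), and neither did any of the 25318 features (0.0%), of which 252, 176 and 229 had an unadjusted p under 0.05. In total RNA the estimates lay on both sides of 0. Those of Atf4, Asns, Sesn2 and Trib3 were close to it. Atf4 differed by 0.05 ± 0.39, Asns by 0.08 ± 0.20, Sesn2 by 0.07 ± 0.37 and Trib3 by -0.01 ± 0.49 between 15 and 60 min. Ddit3 (-0.20 ± 0.34), Ppp1r15a (-0.52 ± 0.26), Chac1 (-0.53 ± 0.42) and Ddit4 (-0.83 ± 0.80) had negative estimates, none past the threshold. With 2 libraries per group, standard errors of this size are as large as most of these estimates. In simulated data the labeled 60 against 15 min comparison recovered 0 of 200 genes changed by a log2 difference of 1. The lack of calls therefore does not show that levels stayed the same.

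At single labeling times, likewise, none of the 25318 features passed, with 2715, 2820 and 2835 at an unadjusted p under 0.05 at 15, 30 and 60 min. The estimates for Ppp1r15a were 1.18, 1.58 and 1.69, and for Ddit3 0.87, 1.63 and 0.83 at the 3 times. The labeled libraries of 15 and 60 min were also left out for replicate 1 or for replicate 2, an alternative added after the data had been seen. At 30 min, where both labeled libraries remained, 0.739% of all features passed without those of replicate 1 and 0.790% without those of replicate 2. Atf4 (0.96) and Ddit3 (1.63) were among them in both cases, and Ppp1r15a (1.58) lay at the threshold. These estimates are the same as with all libraries, where no feature passed at 30 min. Only the error estimate, which is shared by all groups, changed. A group with a single library adds nothing to it, so the spread between labeled replicates at 15 and 60 min dropped out. The SE fell from 0.39 to 0.14 for Atf4 and from 0.34 to 0.23 for Ddit3 in both cases. The calls at 30 min are therefore no added evidence from the 30 min libraries. At 15 and 60 min a single labeled library remained and was assumed to vary like the other groups, so the calls there have no replicate behind them. At 60 min 9.02% and 2.93% of all features passed, with Ppp1r15a at 1.84 and 1.54 in both, and Atf4 at 1.08 without replicate 1 and 0.03 (adjusted p = 0.932) without replicate 2. Paired by time and replicate number, labeled RNA was above total RNA in 6 of 6 pairs for Atf4, Ddit3 and Ppp1r15a, in 5 for Trib3 and Chac1, in 4 for Atf5 and Ddit4, in 3 for Sesn2 and in 1 for Asns.

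Labeled and total values also give rough kinetic rates, under the assumption that labeled exons accumulate in proportion to synthesis. Degradation was taken as synthesis divided by total spliced RNA, and processing as synthesis divided by total intronic RNA. Because labeled libraries are scaled to the same total at each time, the rates have no absolute scale, and only their rank among all genes is described. By degradation Trib3 (percentile 97.8), Chac1 (97.5), Ddit3 (96.7) and Ppp1r15a (91.3) ranked among the fastest of 24179 features, Atf4 at 78.6, Sesn2 at 65.8, and Ddit4 (24.0) and Asns (23.5) among the slower ones. These ranks use the exonic values compared above and are no separate evidence. With 1 replicate at a time, Trib3 stayed at 97.8 and 98.0 and Ddit3 at 95.4 and 97.1, while Ppp1r15a was at 93.8 and 85.6, Chac1 at 95.0 and 80.4 and Asns at 33.3 and 19.4. The ranks of Sesn2 (80.5 and 42.6), Atf4 (85 and 62.7) and Ddit4 (26.1 and 64.5) moved further and are not set by these libraries. For genes with high intronic relative to exonic values, such as Trib3, Ddit3 and Chac1, the denominator is small and the rate uncertain. Their median percentages in total RNA were 71.5%, 57.8% and 49.0%. By processing, Atf4 ranked at 97.9 of 16459 features and at 96.5 and 98.5 with single replicates. Asns was at 81.4 (82.4 and 79.1), Sesn2 at 53.3 (59.1 and 42.0) and Chac1 at 33.6 (43.0 and 55.9). Ddit3 was at 30.0 (21.4 and 39.8) and Trib3 at 16.3 (12 and 27.7), with the ranks of single replicates in parentheses. Ppp1r15a was at 85.2 (76.5 and 97.6), but 85.2 came from 15 min alone and 97.6 from replicate 1 at 15 min. At 30 and 60 min total replicate 1 had no intronic value for it. Rates of the other genes were averaged over 15, 30 and 60 min, and the median rate of all features was highest at 15 min. The rank of 85.2 is therefore not comparable with theirs. Among rates from 15 min alone, Ppp1r15a ranked at 69.7. The 15 min values also weigh most in the averages of the other genes. By processing at 15, 30 and 60 min alone, Chac1 ranked at 8.3, 60.6 and 66.7 and Trib3 at 13.8, 10.2 and 44.0. Atf4 stayed at 97.7, 98.1 and 98.8. The place of Chac1 is therefore not set, and that of Trib3 moved at 60 min.

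The uridine content of the transcripts, which together with their length sets how many 4sU positions each offers, was recorded beside these results. Among 55443 protein-coding transcripts of GENCODE M1 the median was 23.7%. The percentage was 15.7% in Ddit3-002, 17.6% in Ddit3-001 and 18.0% in Ppp1r15a-001. It was higher in Asns-001 (25.7%), Chac1-001 (23.5%), Atf4-202 (22.4%), Trib3-001 (21.9%) and Sesn2-001 (20.9%). By number, Ppp1r15a-001 held 420 uridines, beside 386 in Atf4-202, 385 in Chac1-001 and 157 in Ddit3-001. The part of uridine content in the differences was not tested.

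Other genes of the pathway were arranged by role. The upstream list holds the eIF2α kinases, eIF2 and eIF2B subunits and eIF2α phosphatases. Beside 9.49% of all features lower and 6.38% higher, 4 of its 16 genes were lower in labeled RNA and 0 higher, and the median was -0.12. In the fit with a block for each pair 2 of the 16 were lower, beside 4.89% of all features. Without the block the lowest were Eif2s3x, the γ subunit of eIF2 (-1.05 ± 0.12, adjusted p = 0.000873), Impact, an inhibitor of the kinase GCN2 (-0.78 ± 0.18, 0.0167), and Ppp1ca, a catalytic subunit recruited by Ppp1r15a (-0.47 ± 0.13, 0.0296). Ppp1r15a and the catalytic subunit that it recruits thus stood on opposite sides of total RNA, although the Ppp1ca call was lost in the fit with the block.

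Metabolic targets of ATF4 had negative medians, as Asns had a negative difference. Among 13 aminoacyl-tRNA synthetases and related genes, 10 were lower in labeled RNA and 0 higher, with a median of -0.43 and 9.49% of all features lower. With the block for each pair 5 of the 13 were lower, with single libraries left out 5 to 10 were, and with a whole replicate left out 0 were. Over all libraries and without the block the lowest were the tRNA exporter Xpot (-0.90 ± 0.16) and the glycyl- and threonyl-tRNA synthetases Gars (-0.60 ± 0.12) and Tars (-0.59 ± 0.11). In amino acid synthesis and one-carbon metabolism 3 of 14 genes were lower, the proline enzyme Aldh18a1 (-0.45), the mitochondrial folate enzyme Mthfd1l (-0.43) and the aspartate aminotransferase Got1 (-0.35), with a median of -0.26. All 3 calls were lost in the fit with the block, so this list holds no call that stood in both. Of 9 amino acid transporters 1 was lower, Slc7a5, the light chain of the large neutral amino acid transporter (-0.88 ± 0.14), a share near that of all features, and the median was -0.13. None of these 36 genes was higher.

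Stress and growth control genes had a median of 0.24, with 1 of 12, the ER membrane protein gene Herpud1, higher (1.09 ± 0.13, adjusted p = 0.00115) and 0 lower, near the 6.38% of all features called higher. Herpud1 was at 81.3 to 134 in labeled and 37.6 to 70.5 in total RNA, which did not overlap. In the other arms of the unfolded protein response, 1 of 14 was higher, the transcription factor Xbp1 (0.80 ± 0.19, adjusted p = 0.0162), a call lost in the fit with the block, and 3 were lower, the chaperone-related Pdia4 (-0.75), Edem1 (-0.66) and Hyou1 (-0.56), with a median of -0.14. None of the 4 measured partners and related bZIP factors of ATF4 passed the threshold (median 0.06). The difference between these lists and the 9 genes was not tested.

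**Figure D5:**
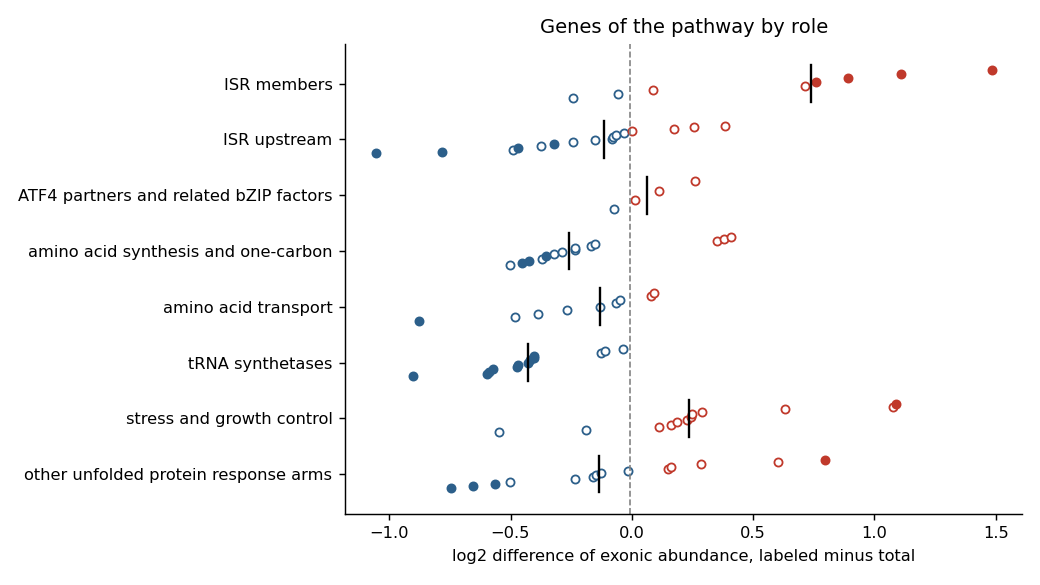
Difference in exonic abundance between labeled and total RNA (log2) for each gene of the pathway lists, 1 circle per gene, filled where adjusted p was under 0.05, with a black line at each list's median and a dashed line at the median of all features. All 10 filled circles of the tRNA synthetase list lie below 0, while the 4 filled circles of the 9 genes lie above it.

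Among 13969 genes, those whose exonic log2 profile over the 12 libraries ran closest to the mean centered profile of the 8 tested members were Ahnak2 (Pearson r = 0.97), Slc20a1 (0.96), 4933403G14Rik (0.95), Dpp7 (0.95) and Mul1 (0.95). The 12 libraries share the split into labeled and total RNA, which by itself gives many genes a like profile.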

How the data were processed

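Labeled and total RNA of mESCs was measured in 12 libraries, 2 in each of 6 groups. The submitters' processing notes name STAR 2.5.0, RSEM and mm10, and the authors used RSEM for abundances of exons and introns. The deposited values have a common total per library and are taken as a length-normalized signal, about which the labels say nothing. The depth and counting error of each library therefore cannot be read from them, and a test on counts could not be run. Missing values, which are those of 1 or less, were set to 0.

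Transcripts were assigned to genes with GENCODE M1, which is annotated on mm9 and was used for names and gene positions only, and 69.1% of transcripts with exonic values were found there. Others remained features of their own. Promoter windows came from RefSeq in GRCm38.p6, and all 9 genes had one. Exonic and intronic sums with a mean of at least 20 entered limma (version 3.58.1, R 4.3.3) as log2(value + 1). Labeling time was a factor, the prior variance followed the mean, and p-values were adjusted by Benjamini-Hochberg over all features. Changes with time used a model of the 6 group means. Values of single genes were also tested by exact permutation of libraries. The limma fits were tested on simulated data of 25318 genes, 200 of them changed. At a log2 change of 1 the labeled against total fit recovered 78 and the labeled 60 against 15 min fit 0. At a log2 change of 2 they recovered 159 and 86, and with a whole replicate left out the former recovered 0 at either size. Tables and figures were made in Python 3.11.15 (pandas 2.3.3, scipy 1.17.1, matplotlib 3.10.9 and numpy 2.4.6).

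Members and pathway lists were chosen with earlier results of these data known. Of other lists, up to 3 genes with the largest differences in each direction past the threshold are named, and, as most alike, the 5 genes with the highest correlation. Markers named here as at 0 or above 20 were picked from their list by that criterion. Alternatives covered the pseudocount, the filter, 2 scalings, transcripts in place of genes, the variance trend, a replicate block and left-out libraries. The labels give a replicate number for each library and do not say that it marks a line of the divided culture. Deviations of labeled and total libraries with the same number correlated at -0.04, 0.07 and -0.24 at 15, 30 and 60 min.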

Additional observations from a re-analysis of the deposited data

Results flagged for a closer look

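In 33 sets of 6 libraries (exons or introns of 1 gene in 1 kind of RNA, with at most 1 library at 0), the most extreme library was compared with its nearest neighbor relative to the whole range. This set apart 2 libraries, where chance would give 1.65. The Trib3 exonic sum in labeled 60 min replicate 1 was 162, and the next highest labeled library was at 85.5, a gap of 0.63 of the range. The part of that library's high intronic share in the value was not tested. Atf5 introns had no value (0) in total 15 min replicate 2, while the next lowest total library was at 3.76, a gap of 0.64 of the range. As values of 1 or less are missing from the deposited table, a 0 here stands for any level up to 1.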

How the results depend on the processing

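Counts of the 9 genes called are given first, then counts of all features. For exons labeled against total (4 genes, 4017 features), median centering gave 2 genes, transcripts 7888 features and the replicate block 2442 features with 4 genes. For introns (5 genes, 3625 features), a mean of at least 100 left 0 genes and 941 features, as 1 member remained testable, median centering and transcripts gave 2 genes each, and no filter gave 6438 features. For the ratio (1 gene, 2296 features), no filter, a mean of at least 100 and transcripts gave 0 genes and the replicate block 2, with 799 features at a mean of at least 100. For changes with time and for single times no gene was called under any of these settings. Features called were 5 with no filter and 1 with no trend for labeled 60 against 15 min, 12 and 8 for the difference of differences, 7, 12 and 7 with log2(value + 10), no filter and no trend for total RNA, and 17, 36 and 19 for single times. The causes were not tested.

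With libraries or a whole replicate left out, exons gave 0 to 5 genes and 0 to 7460 features, introns 2 to 6 genes and 1381 to 10689 features, and the ratio 0 to 5 genes and 295 to 8327 features. Single times gave 0 to 4 calls of a gene at a time and 0 to 2573 features, labeled RNA over time 0 to 44 features, total RNA 0 to 16 and the difference of differences 0 to 44. The exonic difference was -0.30 to 0.23 for Ddit4 and -0.20 to 0.37 for Sesn2, and the ratio -0.29 to 0.12 for Ddit3 and -0.74 to 3.43 for Ppp1r15a. Leaving out a whole replicate leaves 3 libraries of each kind, and at most 5 features passed for exons then, so lost calls say nothing about size. Leaving out both labeled libraries of 1 replicate at 15 and 60 min was added after the data had been seen. Labeled and total libraries of the same time and number did not deviate together. The labeled libraries of 15 and 60 min, however, resembled each other by number in intronic share. It was 14.8% and 13.9% in replicate 1 and 7.24% and 6.99% in replicate 2. The replicate block, beside the calls named above, lost the calls of Aldh18a1, Got1, Mthfd1l, Ppp1ca, Eif2s2, Xbp1 and 5 tRNA synthetase genes. The values hold no depth, so its limits cannot be stated, and 2 libraries per group limit the comparisons over time.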
